A study of Mus musculus with 6 samples.

Results

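The genes described here serve protein folding in the endoplasmic reticulum (ER) and the unfolded protein response. They were listed by function as 40 mouse gene symbols, and 39 had a row among the 14868 genes of the deposited table. The remaining symbol, Vimp, had no row, and its gene is followed below under its newer symbol Selenos. The study compared naïve CD4+ T cells of WT mice with those of Ikzf4-/- mice, which lack the Ikaros-family transcription factor Eos, both on a C57BL/6J strain background. All cells were cultured for 3 days (72 h) on plate-bound anti-CD3 (5 µg/mL) and anti-CD28 (2 µg/mL), antibodies that together activate T cells. All cultures also received 10 µg/mL anti-Ifng, which blocks interferon gamma, and 10 ng/mL IL-4, the cytokine that turns naïve cells into T helper 2 (Th2) cells. The labels give 3 libraries of total RNA for each genotype. They do not say how the Ikzf4 allele was made or whether the libraries came from separate animals or cultures, so p-values measure the spread between these libraries, which may be technical.

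The ER is where secreted and membrane proteins enter the secretory pathway, are folded by chaperones, receive disulfide bonds and sugars, and are sent for degradation when folding fails. When unfolded proteins build up, the sensors IRE1 (gene Ern1), ATF6 (Atf6) and PERK (Eif2ak3) start the unfolded protein response. One of the effects of this response is a larger supply of chaperones. IRE1 splices the mRNA of the transcription factor XBP1 (Xbp1), while ATF6 is itself cut to release a transcription factor. This machinery is best known from cells that secrete heavily, such as plasma cells, and activated Th2 cells, which secrete cytokines, use it as well. The table holds 1 value per gene, so the splicing of Xbp1 and the cleavage of ATF6 were not measured.

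A sequence found upstream of some of these genes is the ER stress response element, a promoter motif bound by the general factor NF-Y at one end and by cleaved ATF6 at the other. Promoter windows of RefSeq (GRCm38.p6), from 250 bases before to 50 bases after each gene start, were searched on both strands for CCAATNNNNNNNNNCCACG. A window was matched by symbol or RefSeq synonym for 31 of the 39 genes, and none was matched for Atf6, Derl1, Hyou1, Manf, Sec11c, Sec61a1, Spcs3 and Ssr2. The element was present in 9 of 31 (29.0%), against 0.180% of the 10528 tested genes with a window and 0.119% of all 32851 windows. The matches are shown because the element was present at a higher share among these genes than among all windows. Among the chaperone and isomerase genes, Dnajb9, Dnajb11, Sdf2l1, Pdia3, Pdia4, P4hb, Ero1l and Ppib had a window without it. Each is printed 5′ to 3′ in the direction that places CCAAT first, with both fixed parts of the motif in capitals.
Hspa5: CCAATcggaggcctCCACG
Hsp90b1, near match: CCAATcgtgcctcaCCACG
Hsp90b1, far match: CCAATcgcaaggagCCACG
Calr: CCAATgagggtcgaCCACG
Canx: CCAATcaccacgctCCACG
Pdia6: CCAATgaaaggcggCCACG
Dnajc3: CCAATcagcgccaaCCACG
Creld2: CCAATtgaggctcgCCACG
Derl3: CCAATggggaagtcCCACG
Syvn1: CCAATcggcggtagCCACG

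On GRCm38.p6 these lie at chr2:34772025-34772043 (plus strand as printed) for Hspa5, chr10:86705533-86705551 (plus) and chr10:86705638-86705656 (minus) for Hsp90b1, chr8:84847075-84847093 (plus) for Calr and chr11:50325800-50325818 (minus) for Canx. The others lie at chr12:17266491-17266509 (plus) for Pdia6, chr14:118937827-118937845 (plus) for Dnajc3, chr15:88819520-88819538 (minus) for Creld2, chr10:75893242-75893260 (minus) for Derl3 and chr19:6046532-6046550 (plus) for Syvn1. All 10 lie upstream of the RefSeq gene start. The closest is that of Syvn1, 26 to 44 bases upstream, and the farthest is the second match of Hsp90b1, 194 to 212 bases upstream. In the GENCODE M21 annotation, used here for gene positions, Hspa5 starts earlier, at chr2:34771970 (plus strand), so its match lies inside that gene. The 9 bases between the fixed parts differed in every one of the 10 matches. The fixed part CCACG alone, which every full match also contains, was found in 27 of the 31 windows (87.1%), against 52.0% of the tested genes with a window. The 8-base element TGACGTGG was in 0 of the 31 (1.04% of tested genes) and its variant TGACGTGA in 1, Hspa5 (0.779% of tested genes). A match describes these letters in these windows and does not show that a factor binds there.

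Read depth implied by the step between values ran from 34701400 to 40604300 reads per library, an estimate that could not be accepted as recovered reads for Ikzf4-/- replicates 1 and 3, whose steps lay near 1. Ikzf4 was at a normalized read count of 580 ± 153 in WT and 24.6 ± 13.9 in Ikzf4-/- libraries (SD, n = 3 each), and every library matched its label. All 7 CD4 T cell markers had a row, with a summed value of 78795 to 81453 in WT and 78371 to 82861 in Ikzf4-/- libraries. None of the 7 was called, but they did not all lie one way: Gata3, the Th2 master factor, was at -0.24 in log2 fold change (limma adjusted p = 0.146), Cd3g at -0.16 (limma adjusted p = 0.130) and Trac at 0.19 (limma adjusted p = 0.0902). The Ikzf4-/- values of Cd3g all lay below and those of Trac and Cd4 all above the WT values, and the part of these shifts in the ER results was not tested. Of 9 markers of B and plasma cells, which are rich in ER, 3 had a row (Cd79a, Cd79b and Sdc1), and their sum was 329 to 560 in WT and 408 to 438 in Ikzf4-/- libraries. The 2 CD8 T cell markers summed to 236 to 423 and 232 to 374, and none of 6 myeloid markers had a row. On the first principal component of all genes (40.2% of the variance) WT replicate 1 stood apart, at -41.3 against -12.5 and -5.26 for the other WT libraries, and 11.1 to 30.8 for the Ikzf4-/- libraries.

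Most of the ER genes were among the more abundant transcripts of these cells. Levels of different genes were compared as normalized read count per kilobase of exon, using the union of annotated exons. On this scale the median ER gene was at 1792 in WT, against 163 over all 14864 genes tested, and 36 of the 39 had a normalized read count of at least 1000 on average. Calr, the calcium-binding lectin chaperone calreticulin, was highest, at 12866 ± 247 per kilobase in WT (SD, n = 3). Below it came Hspa5, which encodes the central Hsp70 chaperone BiP, at 8026 ± 262, and Hsp90b1, the Hsp90 of the ER, at 7761 ± 224, whose levels differed by about 1 SD. P4hb, a protein disulfide isomerase, was at 7670 ± 329, and its level did not differ from that of Hsp90b1 beyond the spread. The sensor genes were low by comparison, at 160 ± 17.0 for Atf6 and 58.2 ± 9.14 for Ern1, while Xbp1 was at 2510 ± 153. Lowest was Derl3, a derlin known from secretory organs, at 13.5 ± 2.64. The 4 derlin-family and ligase genes Derl2, Derl1, Sel1l and Syvn1 lay between 249.8 and 980 per kilobase.

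**Figure D1:**
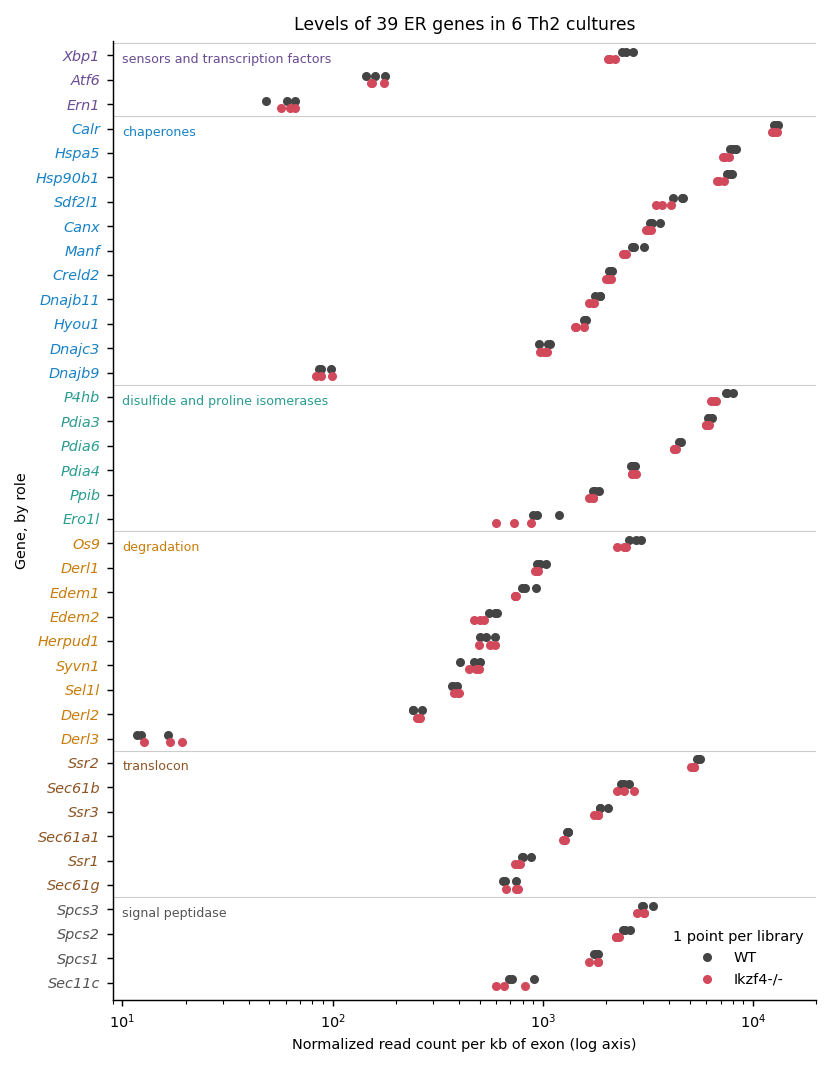
Normalized read count per kilobase of exon (x axis, log scale) of the 39 ER genes (y axis, grouped by role), with 1 point for each of 3 WT and 3 Ikzf4-/- libraries. Levels span from Derl3, at 13.5 in WT, to Calr, at 12866, a wider range than the gap between genotypes, which is largest in log2 terms for Ero1l.

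The comparison of genotypes asks how the loss of Eos bears on the expression of these genes in Th2 cultures. Differences were small: 2 of the 39 genes passed the test, Xbp1 and P4hb, and both fell in Ikzf4-/- cells, by 0.25 and 0.24 on the log2 scale. No ER gene was called higher. Over all 14864 genes the same limma test at an adjusted p under 0.05 called 1.2% lower and 0.572% higher. At an unadjusted p under 0.05 there were 14 of 39, all fitted lower. Fitted lower with such a p were 1503 of the 14864 genes tested, and 846 of the 6453 with a mean of at least 1000. The log2 fold changes of the 39 ran from -0.46 (Ero1l) to 0.25 (Derl3), with a median of -0.07 where the median of all genes was 0.00. Of the 39, 29 were below 0, against 48.7% of all genes. In the authors' deposited table, 8 of the 39 had an adjusted p under 0.05, all lower, where 3.89% of genes with an adjusted p were lower and under 0.05. Those 8 were Xbp1, P4hb, Sdf2l1, Os9, Hsp90b1, Manf, Edem2 and Edem1.

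A second view is whether the 3 values of one genotype all lie beyond those of the other. For 19 of the 39 genes (48.7%), all 3 Ikzf4-/- values lay below all 3 WT values, and for 0 of the 39 they lay above. The same pattern was found in 12.2% of all genes tested (11.0% in the opposite direction) and in 15.8% of the 6453 genes with a mean of at least 1000. When every library was scaled to the same total, the count was 13 of 39 (33.3%), against 9.51% of all genes. Scaling to equal totals moved the median fold change of all genes to 0.03 and that of the ER genes to -0.04. The summed normalized counts were 36484500 to 37374900 in WT and 36104100 to 36329200 in Ikzf4-/- libraries, and their part in these small shifts was not tested beyond that scaling. In bulk RNA, fewer cells of a type and less RNA per cell cannot be told apart.

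**Figure D2:**
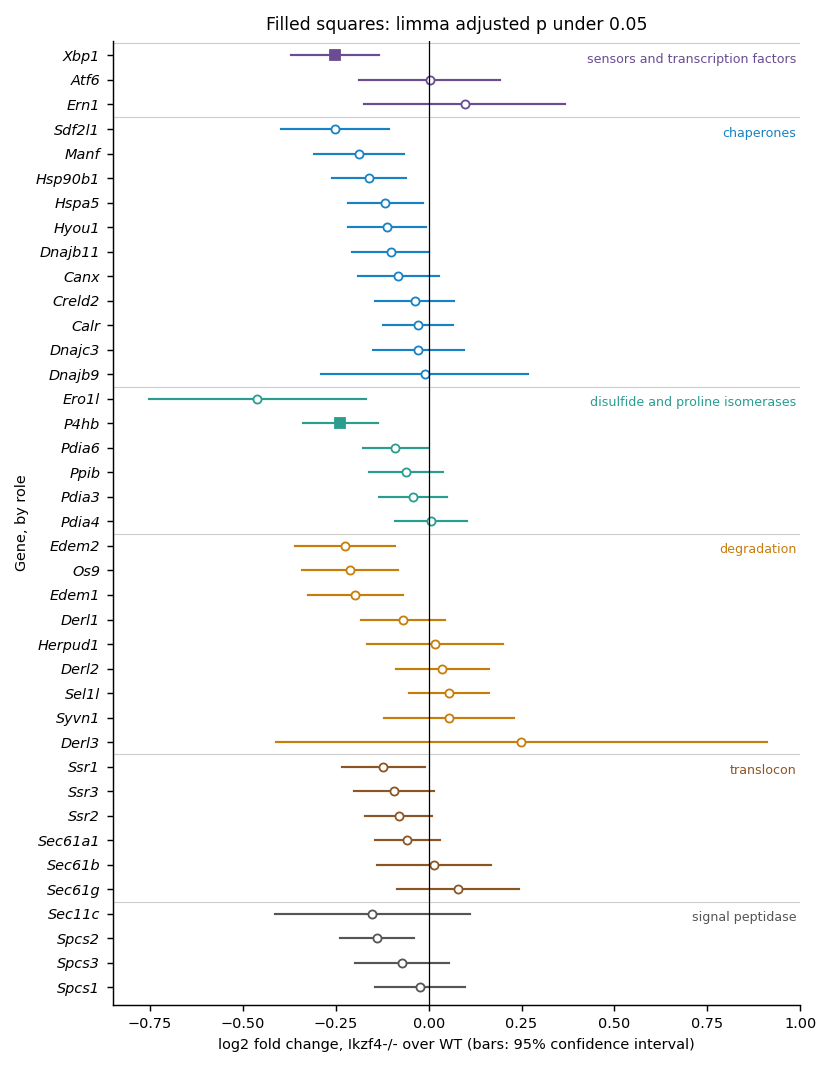
Log2 fold change of Ikzf4-/- over WT (x axis) for the 39 ER genes (y axis, grouped by role), with 95% confidence intervals from limma; filled squares are called genes and open circles are not. Only Xbp1 and P4hb are called, and most points lie slightly left of 0.

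Among the sensors and transcription factors, Xbp1 fell and the sensor genes did not pass the test. Xbp1 (ENSMUSG00000020484, chr11:5520659-5525893, plus strand, GRCm38) encodes the transcription factor that IRE1 activates. Its normalized read count was 8698, 7725 and 8034 in WT and 6619, 6795 and 7119 in Ikzf4-/- libraries, each in the order of replicates 1 to 3 as for all values below. Every Ikzf4-/- value was below every WT value. The mean fell from 8152 ± 498 to 6844 ± 254 (SD, n = 3 each), which is -0.25 ± 0.05 (SE) in log2 fold change, with an adjusted p of 0.0466 by limma. Leaving out WT replicate 1, where Xbp1 was highest, gave -0.20 and an adjusted p of 0.0676, and of the 6 fits without 1 library only that without WT replicate 3 called it (0.0492). With equal library totals Xbp1 was at -0.22 and missed the threshold (0.0529).

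Atf6, the sensor that becomes a transcription factor, was at 1639, 1471 and 1327 in WT and 1615, 1419 and 1404 in Ikzf4-/- libraries. The groups overlapped fully, and the log2 fold change of 0.00 had a 95% interval from -0.19 to 0.19 (limma adjusted p = 0.992). Ern1, which encodes the kinase and nuclease IRE1, was at 393, 538 and 495 in WT and 463, 510 and 542 in Ikzf4-/- libraries. The groups overlapped here too. The log2 fold change was 0.10 with a 95% interval from -0.17 to 0.37 (limma adjusted p = 0.736). WT replicate 1, the highest library for Xbp1 and Atf6, was the lowest for Ern1.

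Of the 11 chaperones and chaperone partners, none was called, and all 11 were fitted below 0, against 48.7% of all genes tested. Calr, however, changed sign with quantile scaling and Dnajb9 with equal library totals. The group's log2 fold changes ran from -0.25 to -0.01, with a median of -0.10. In 6 of the 11 genes all Ikzf4-/- values lay below all WT values. That pattern was found in 12.2% of all genes and in 15.8% of those with a mean of at least 1000. Sdf2l1, a partner of BiP, had the smallest p-value. It was at 5070, 4608 and 5123 in WT and 3839, 4104 and 4506 in Ikzf4-/- libraries, which is -0.25 ± 0.07 (SE) in log2 fold change, with an adjusted p of 0.0811 by limma. The lowest WT value was thus only slightly above the highest Ikzf4-/- value. Calr, the most abundant, was at 37278, 36260 and 37626 in WT and 37387, 35277 and 36294 in Ikzf4-/- libraries, with overlapping groups and a 95% interval of the log2 fold change from -0.12 to 0.07.

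Some further chaperones that the stress response is known to raise are given in each library, chosen after their values had been seen. Hspa5 was at 34095, 32766 and 34962 in WT and 30432, 30957 and 32554 in Ikzf4-/- libraries. The groups did not overlap, but the gap between them was narrow, and the log2 fold change of -0.12 (95% interval -0.22 to -0.02) had a limma adjusted p of 0.211. Hsp90b1 was at 32133, 30339 and 31404 against 27234, 27614 and 29201, or -0.16 in log2 fold change, with a limma adjusted p of 0.0981. Manf, a secreted protein that binds BiP, was at 10667, 9508 and 9336 against 8775, 8454 and 8640, or -0.19 in log2 fold change, with a limma adjusted p of 0.105. None of these 3 genes was called by limma. Hyou1, which exchanges nucleotide on BiP, and Dnajb11, one of its co-chaperones, had log2 fold changes of -0.11 and -0.10, each without overlap. The co-chaperone genes Dnajc3 and Dnajb9, the lectin chaperone gene Canx, and Creld2 lay between -0.08 and -0.01 with overlapping groups.

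In the group that forms disulfide bonds or turns prolines, P4hb fell and the other 5 did not pass the test. P4hb (ENSMUSG00000025130, chr11:120560298-120573253, minus strand, GRCm38) had values of 23028, 21452 and 21349 in WT and 18130, 19062 and 18586 in Ikzf4-/- libraries. The groups were well apart. The mean fell from 21943 ± 941 to 18592 ± 466 (SD, n = 3 each), which is -0.24 ± 0.05 (SE) in log2 fold change, with an adjusted p of 0.0334 by limma. Of the 6 fits that each left out 1 library, those without WT replicate 1 (0.0414) and without WT replicate 3 (0.0259) called P4hb. The adjusted p was 0.0652 without WT replicate 2, and 0.105, 0.0785 and 0.115 without Ikzf4-/- replicates 1, 2 and 3.

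Ero1l, which encodes the oxidase that recharges protein disulfide isomerases, had the most negative fold change of the 39 and the widest spread of this group. It was at 6278, 4742 and 4954 in WT and 3158, 4662 and 3842 in Ikzf4-/- libraries. The lowest WT value and the highest Ikzf4-/- value nearly met, WT replicate 1 was high and Ikzf4-/- replicate 1 was low. The log2 fold change of -0.46 had a 95% interval from -0.75 to -0.17 and was not called (limma adjusted p = 0.101). Over the 6 fits that each left out 1 library it ran from -0.60 to -0.32. The isomerase genes Pdia6 and Pdia3 had log2 fold changes of -0.09 and -0.04. Pdia4 was at 0.01 and Ppib, the ER cyclophilin, at -0.06, and none of these 4 was called.

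The 9 genes of ER-associated degradation with a row split by direction, with 4 fitted below and 5 above 0 and a median of 0.02, and none was called. Edem2, a mannosidase-like protein that marks glycoproteins for disposal, had the smallest p-value. It was at 2089, 1928 and 2045 in WT and 1628, 1810 and 1746 in Ikzf4-/- libraries, without overlap, which is -0.23 ± 0.06 (SE) in log2 fold change, with an adjusted p of 0.0862 by limma. Os9, the most abundant of the group, encodes a lectin that hands glycoproteins to the degradation ligase. It was at 7736, 7293 and 6784 in WT and 6506, 6425 and 5896 in Ikzf4-/- libraries, without overlap, or -0.21 in log2 fold change, with a limma adjusted p of 0.0922. Os9 lies 1.51 Mb from Ikzf4 on the same chromosome (chr10:127095650-127121131, minus strand, GRCm38), and whether its value is linked to the altered locus was not tested. Ddit3, described below, lies between Os9 and Ikzf4 (chr10:127290774-127296288, plus strand), and a link was not tested for it either. Edem1, a relative of Edem2, had a log2 difference of -0.20 and a limma adjusted p of 0.111, with all 3 Ikzf4-/- values between 4740 and 4790 and the WT values between 5112 and 5973.

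The ligase genes themselves showed no such pattern. Syvn1 (Hrd1) and its partner Sel1l had log2 fold changes of 0.06 and 0.05, with 95% intervals from -0.12 to 0.23 and from -0.05 to 0.16. Herpud1, which recruits the ligase, was at 0.02, and the derlin genes Derl1 and Derl2, whose products form part of the exit channel, were at -0.07 and 0.04. Derl3 was at 24.5, 23.4 and 33.0 in WT and 38.3, 33.5 and 25.1 in Ikzf4-/- libraries. At so low a level a difference was not detectable, and the 95% interval of its log2 fold change ran from -0.41 to 0.91. Selenos, whose product helps draw substrates to the cytosol, had a log2 difference of 0.03 and a limma adjusted p of 0.770.

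The 6 translocon genes and the 4 signal peptidase genes serve entry into the ER, and none of the 10 was called. In 4 of the 6 translocon genes and in 1 of the 4 signal peptidase genes all Ikzf4-/- values lay below all WT values. This pattern was found in 12.2% of all genes tested and in 15.8% of those with a mean of at least 1000. Ssr1, a subunit of the translocon-associated complex, had the smallest p-value of its group, with 9205, 8386 and 8313 in WT and 7904, 8146 and 7727 in Ikzf4-/- libraries (log2 fold change -0.12, limma adjusted p = 0.234). Ssr2, from the same complex and the most abundant, was at 10076, 10178 and 10412 against 9483, 9751 and 9763 (log2 fold change -0.08, limma adjusted p = 0.328). Both pairs of groups were separate by a small margin. Ssr3 was at -0.09, and the channel genes Sec61a1, Sec61b and Sec61g were at -0.06, 0.01 and 0.08.

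For the peptidase that removes signal peptides, Spcs2 was at 10936, 10327 and 10129 in WT and 9354, 9689 and 9442 in Ikzf4-/- libraries. These groups did not overlap, and the log2 fold change was -0.14 (95% interval -0.24 to -0.04, limma adjusted p = 0.135). Spcs3, the most abundant by read count, was at 11622, 10398 and 10254 against 9684, 10456 and 10540, which overlap (log2 fold change -0.07, limma adjusted p = 0.559). Spcs1 was at -0.02. Sec11c, a catalytic subunit, varied more between replicates than between genotypes, with 6150, 4832 and 4713 in WT and 5604, 4454 and 4094 in Ikzf4-/- libraries.

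**Figure D3:**
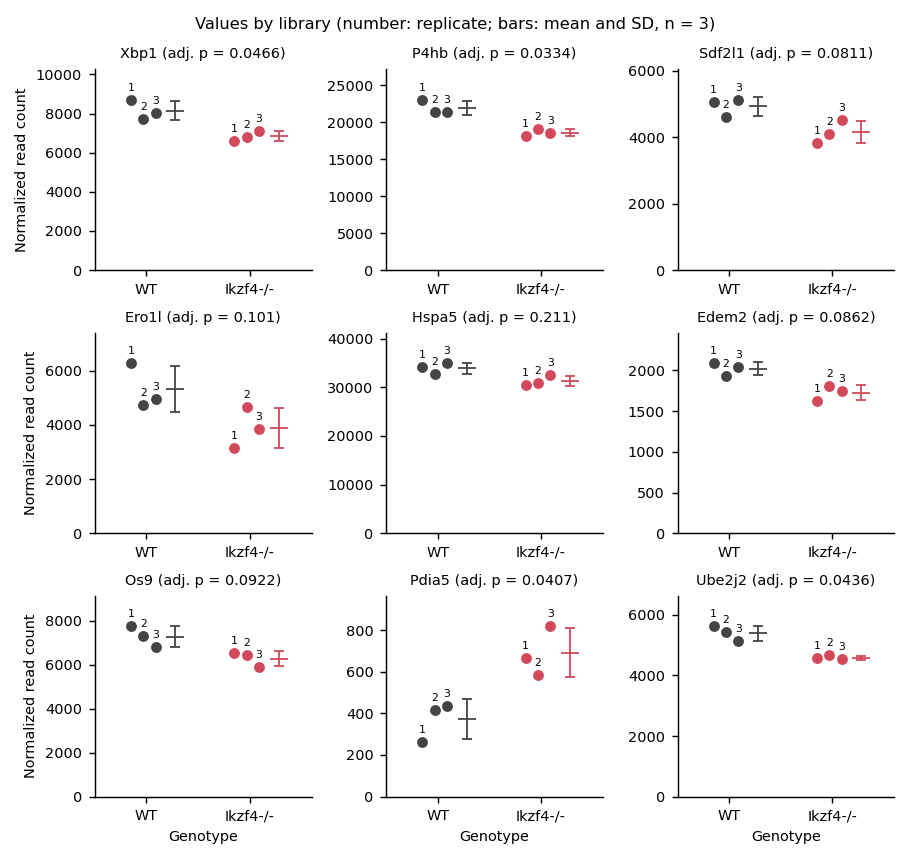
Normalized read counts (y axes, from 0) by genotype (x axes) for 7 of the ER genes and for Pdia5 and Ube2j2; points are libraries numbered by replicate, bars are the mean and SD (n = 3). Xbp1, P4hb and Ube2j2 are lower and Pdia5 higher in Ikzf4-/- libraries with a limma adjusted p under 0.05, and the other 5 genes are not called.

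Libraries also differed within a genotype. Each gene's log2(value + 1) was expressed as its deviation from the mean over the 6 libraries and averaged over the 39 genes. This average was 0.07, 0.01 and 0.04 for the WT libraries and -0.04, -0.04 and -0.05 for the Ikzf4-/- libraries, while over all genes it lay between -0.02 and 0.01. WT replicate 1 had the highest value of the 6 libraries for 19 of the 39 genes. Over all genes it was the highest for 3805 and the lowest for 3514 of 14864. On the average over the 39 genes, WT replicate 2 (0.01) was the nearest of the WT libraries to the Ikzf4-/- libraries. On the first principal component of all genes the nearest was WT replicate 3 (-5.26). Without WT replicate 1 all remaining Ikzf4-/- and WT values were separate, with Ikzf4-/- lower, in 20 of the 39 genes (15.6% of all genes), and the median log2 fold change of the 39 was -0.05.

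**Figure D4:**
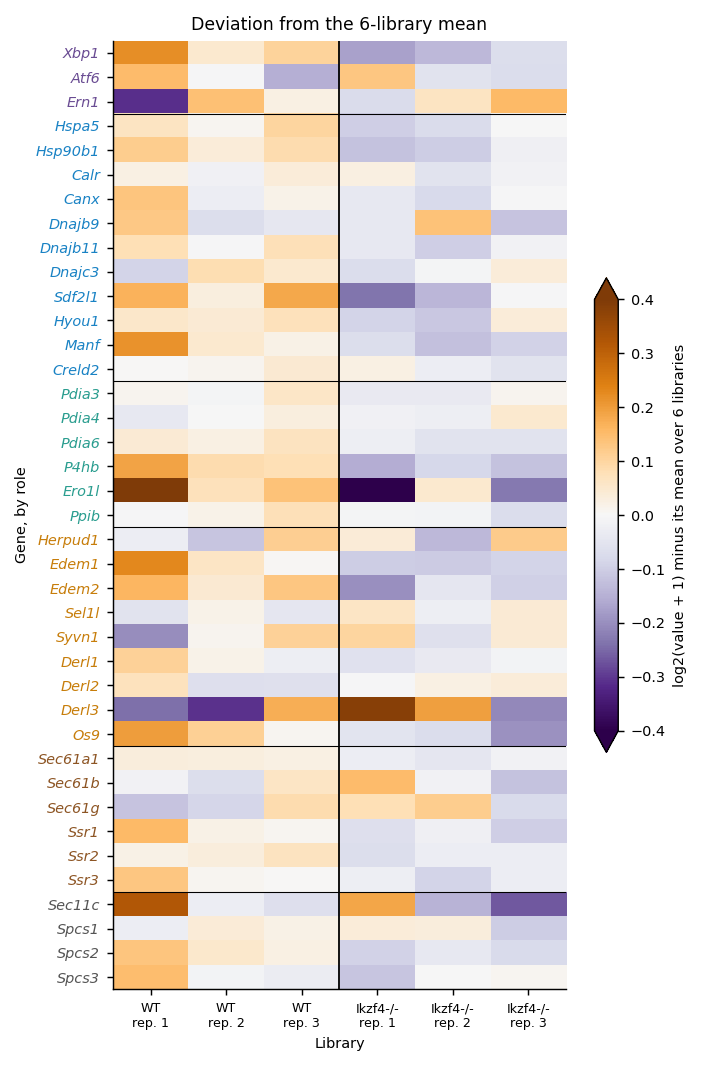
Deviation of log2(value + 1) from its mean over the 6 libraries (colour, log2 units) for the 39 ER genes (y axis, by role) in each library (x axis, WT left of the line). Orange is above and purple below the gene's mean, and WT replicate 1 holds the highest value for 19 of the 39 genes.

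Other genes of the pathway were taken from a list of 96 symbols, some of them alternative names, of which 89 had a row. In this wider list 1 gene was called lower and 1 higher, where 1.2% and 0.572% of all genes were. The median log2 fold change was -0.05, and 63 of 89 were below 0, against 48.7% of all genes. All Ikzf4-/- values lay below all WT values in 21 of the 89 and above them in 6, against 12.2% and 11.0% of all genes. Pdia5, a protein disulfide isomerase, rose from 371 ± 95.9 to 690 ± 118 (SD, n = 3 each), with 261, 418 and 435 in WT and 667, 586 and 818 in Ikzf4-/- libraries. The log2 fold change was 0.92 ± 0.19 (SE), with an adjusted p of 0.0407 by limma, and 0.68 without WT replicate 1, its lowest library, where it was still called (0.0162). Ube2j2, a ubiquitin-conjugating enzyme of ER-associated degradation, fell from 5398 ± 249.6 to 4588 ± 64.3 (SD, n = 3 each). Its values were 5621, 5444 and 5128 in WT and 4571, 4660 and 4535 in Ikzf4-/- libraries, or -0.23 ± 0.05 (SE) in log2 fold change, with an adjusted p of 0.0436 by limma. The call of Pdia5 was lost without WT replicate 2 (0.0615) and without Ikzf4-/- replicates 1, 2 and 3 (0.0974, 0.0649 and 0.155). That of Ube2j2, among the fits without 1 library, was kept only without WT replicate 3 (0.0224), and was lost without WT replicates 1 and 2 (0.0700 and 0.107), without Ikzf4-/- replicates 1, 2 and 3 (0.109, 0.106 and 0.144) and with equal library totals (0.0552).

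The PERK branch was represented by Eif2ak3, the sensor, at 980, 949.8 and 965 in WT and 917, 868 and 960 in Ikzf4-/- libraries (log2 fold change -0.08, limma adjusted p = 0.600). Its downstream factor Atf4 was at 10320, 9988 and 10492 against 10121, 9912 and 9595 (log2 fold change -0.06, limma adjusted p = 0.543). Ddit3, which encodes the stress factor CHOP, was at 530, 493 and 450.3 against 448, 429 and 462 (log2 fold change -0.14, limma adjusted p = 0.493). The groups overlapped in each of these 3 genes. Of the 15 stress factors of the wider list, 13 were fitted below 0, against 48.7% of all genes tested. All Ikzf4-/- values lay below all WT values in 4 (12.2% of all genes) and above them in 1 (11.0% of all genes). One of the 4 was Ppp1r15a, whose product reverses the PERK signal, at 857, 853 and 768 in WT and 741, 755 and 702 in Ikzf4-/- libraries (log2 fold change -0.17, limma adjusted p = 0.271). Trib3, a pseudokinase known as a CHOP target, had the most negative fold change of the wider list (-0.63, limma adjusted p = 0.314), with overlapping groups and WT replicate 1 highest at 135. Ppp1r15a and Trib3 were chosen after their values had been seen. By role, 0 of 15 stress factors, 1 of 20 folding and redox genes (Pdia5, higher), 0 of 22 glycosylation and quality control genes, 1 of 18 degradation genes (Ube2j2, lower) and 0 of 14 entry genes were called. The medians of these groups were -0.07, -0.05, -0.07, 0.00 and -0.03.

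The genes with the ER stress response element can be set beside those without it. None of the 9 ER genes with the printed element was called, their median log2 fold change was -0.04, and in 3 of them (Hspa5, Hsp90b1 and Pdia6) all Ikzf4-/- values lay below all WT values. Of the 22 ER genes with a window and no such match, 2 were called, the median was -0.08 and 12 showed that pattern. Over all genes tested 1.2% were called lower, and 12.2% showed that pattern (15.8% of those with a mean of at least 1000). The difference between the ER genes with and without the element was not tested. Among all 19 tested genes with the element in a window, ER genes included, 0 were called by limma, 4 had an unadjusted p under 0.05 and the median was -0.03. Xbp1 and P4hb had windows without a match to the full element, which says only that the letters are not in those windows.

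**Figure D5:**
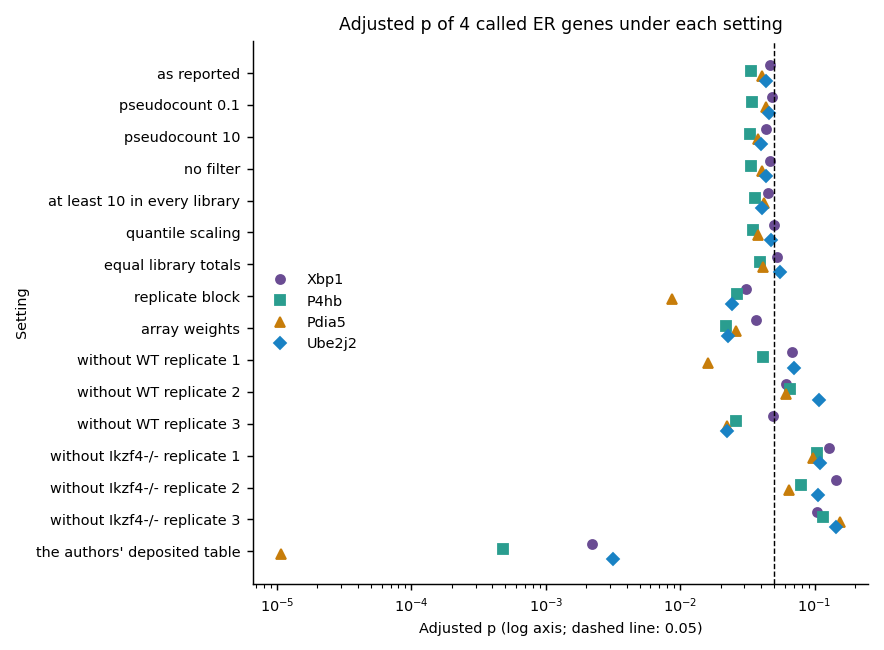
Adjusted p (x axis, log scale, dashed line at 0.05) of the called genes Xbp1, P4hb, Pdia5 and Ube2j2 under each setting (y axis). The fits without 1 Ikzf4-/- library lie to the right of the line for all 4 genes, and the values of the authors' deposited table lie farthest to the left.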

How the data were processed

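Total RNA of Th2 cells was sequenced in 3 WT and 3 Ikzf4-/- libraries. The submitters' processing notes name Trimmomatic 0.36, STAR 2.5.2b, DESeq2 and the builds GRCm38 and mm10; the counting tool, its use of strand and the annotation are not given in the sources used here. The authors deposited normalized read counts per gene, a never-negative signal in which each value was within 0.01 of a whole multiple of 1 step per library, and their own log2 fold changes, p-values and adjusted p-values. No count test was run, because these are not raw counts and the steps of Ikzf4-/- replicates 1 and 3 (1.01 and 1.00) lay too near 1 for reads to be accepted as recovered.

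Values were transformed to log2(value + 1), which understates the change of low genes. The 14864 genes with a mean of at least 10 (4 left out) were fitted with limma 3.58.1 (R 4.3.3), genotype as only term, with a trend of variance with mean. Two-sided p-values were corrected over the whole table with the Benjamini-Hochberg method, and calls were made under 0.05. The fit was tested on simulated data. Positions and exon lengths come from GENCODE M21 (GRCm38), matched by Ensembl identifier.

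The members and lists were chosen with earlier results of these data known, and no set test was run. Values in every library are given for the sensors and Xbp1, for called genes and, in each role group, for the gene with the smallest p and that with the highest mean; of the wider list, for called genes and the PERK branch. Values in every library of Hspa5, Hsp90b1, Manf, Ero1l, Derl3, Sec11c and the marker Sdc1 were added after they had been seen. Protein sequences were not analysed here. Alternatives were pseudocounts of 0.1 and 10, no filter on low values, 10 or more in every library, quantile scaling, equal library totals, array weights, a block for the replicate number, each library left out in turn, and the authors' deposited values.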

Additional observations from a re-analysis of the deposited data

How the results depend on the processing

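Against 263 called genes of the table, 2 ER genes and 2 genes of the wider list, array weights gave 482, 2 and 4, and 815, 8 and 7 had an adjusted p under 0.05 in the authors' deposited table; with equal library totals 1 ER gene and 1 of the wider list were called. Fits that left out 1 library gave 20 to 523 called genes, 0 to 3 ER genes and 0 to 4 of the wider list. The cause was not tested; fits on 5 libraries have fewer samples. The other settings, leaving aside the replicate block, kept each count within 1.5 times. The count of ER genes with all Ikzf4-/- values below all WT values was 13 to 22 of 39 under the scalings and without 1 library. The share of all genes with that pattern moved as well, from 9.51% with equal library totals to 19.1% without WT replicate 3. The count of 22 came without Ikzf4-/- replicate 3, where 16.9% of all genes showed the pattern.

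With the replicate number as a block, 754 genes, 4 ER genes (adding Sdf2l1 and Os9) and 6 of the wider list were called. Correlations of deviations from the group means between libraries of 1 number were 0.145, 0.0122 and 0.142 for replicates 1, 2 and 3. Those of replicates 1 and 3 were the highest between any WT and any Ikzf4-/- library. WT replicate 2 correlated better with Ikzf4-/- replicate 3 (0.0491) than with Ikzf4-/- replicate 2. The labels do not say whether the numbers mark pairs, and these correlations cannot decide it.

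Of the 39 ER genes, Pdia5, Ube2j2, Eif2ak3, Atf4, Ddit3 and Ikzf4, which were the genes followed under each setting, none that was called changed sign. The sign changes were in values near 0: with quantile scaling Calr (0.0393) and Pdia3 (0.0191), with equal totals Dnajb9 (0.0167) and Spcs1 (0.0049), with array weights Dnajb9 (0.0479) and Pdia4 (-0.0011). Without 1 library, log2 fold changes ran from -0.0729 to 0.0797 for Atf6, -0.0341 to 0.193 for Ern1, -0.0828 to 0.0504 for Dnajb9, -0.0798 to 0.00655 for Dnajc3, -0.0158 to 0.0229 for Pdia4, -0.0387 to 0.0882 for Herpud1, -0.0317 to 0.123 for Syvn1, -0.0592 to 0.0761 for Sec61b and -0.0453 to 0.0232 for Spcs1. At the low level of Derl3, depth limits what can be detected.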

Other observations

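On the wider ER list, 3 genes that were not called had a limma adjusted p under 0.1, all fitted lower, and this limit was chosen after the values had been seen. Prdx4, the peroxidase of the ER lumen, was at 2989, 2430 and 2269 in WT and 1852, 1995 and 1926 in Ikzf4-/- libraries, or -0.40 in log2 fold change, with a limma adjusted p of 0.0511. Surf4, a cargo receptor between the ER and the Golgi, had a log2 fold change of -0.22 (0.0616), with 8595, 7860 and 7824 in WT and 7242, 6746 and 6897 in Ikzf4-/- libraries. Ssr4, a subunit of the translocon-associated complex, was at 3596, 3325 and 3524 against 3032, 3066 and 3091, without overlap (-0.18, limma adjusted p = 0.0862), and had an adjusted p of 0.0451 in the authors' deposited table. Opposite to the majority and also not called, Ppic, a cyclophilin, was at 0.66 in log2 fold change (limma adjusted p = 0.121) and Edem3, a relative of Edem1 and Edem2, at 0.19 (limma adjusted p = 0.123).

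The oligosaccharyltransferase attaches N-linked sugars, and 11 genes for its subunits were on the wider list with a row. None was called by limma (lowest adjusted p 0.108), and 10 were fitted below 0, against 48.7% of all genes tested. The log2 fold changes ran from -0.21 (Magt1) to 0.08 (Tusc3), with a median of -0.11. All Ikzf4-/- values lay below all WT values in 4 of the 11 (Ddost, Rpn1, Ostc and Dad1), against 15.8% of genes with a mean of at least 1000. The groups overlapped in the other 7, which were Rpn2, Stt3a, Stt3b, Ost4, Magt1, Krtcap2 and Tusc3. The complex was chosen for mention after its values had been seen.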
